A study of Mus musculus with 6 samples.

Results

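The complement genes described here are C1ra, C4b, C2, C3, Cfb, Cfd, Cfp, Serping1 and C3ar1, picked by gene symbol. All 9 have a row among the 23361 genes of the authors' deposited table. RNA was sequenced from cells of mouse hindlimb skeletal muscle that were sorted for the surface proteoglycan Sdc4 and labelled as primary satellite cells, the stem cells of muscle. The labels give 3 wild-type (WT) and 3 AUF1-null (AUF1 KO) samples, all from mice at 4 months of age whose breeding used C57BL/6 and a 129 background; no treatment is given for either group. AUF1 is an RNA-binding protein made from Hnrnpd that acts on the decay of messenger RNAs with AU-rich elements. The table holds 1 value per gene for each of 2 conditions on the FPKM scale (fragments scaled to transcript length and library size), pooled over samples, so no spread between samples stands beside a value. Its conditions are named q1 and q2, and the sources used here leave unnamed which of them is AUF1-null. Directions below compare q2 with q1 and say nothing of genotype.

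Complement is a chain of plasma proteins that tags microbes and dying cells for removal. The classical pathway starts when C1q binds a target and turns on the proteases C1r and C1s, which cleave C4 and C2. The alternative pathway uses C3, factor B (Cfb), factor D (Cfd) and properdin (Cfp). Both pathways build convertases that split C3 into the surface tag C3b and the peptide C3a, which is read by the receptor C3aR1. C1 inhibitor, made from Serping1, blocks C1r and C1s. The liver makes most plasma complement, but fibroblasts, macrophages, neutrophils and adipocytes also make components locally, and complement is known to act in injured muscle.

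None of the 9 genes was called different between the conditions. A gene counted as called when the authors had tested it (status OK) and its deposited q-value, the p-value adjusted over all tested genes, was below 0.05. By that rule 0.612% of the 14858 tested genes were called, 0.498% higher and 0.114% lower in q2, so 0 of 9 is no result particular to these genes. Every member was tested, and the authors' deposited table gives each of them the same Cuffdiff q of 0.999. The count was 0 of 9 as well with a q below 0.1, where 0.740% of tested genes passed, and at an unadjusted Cuffdiff p below 0.05, where 5.99% passed. Of the members, 6 had a log2 fold change above 0 and 3 below per the authors' deposited table, against 48.7% of tested genes above 0. Their median was 0.27, against -0.01 over all tested genes with a finite value. The member log2 fold changes ran from -0.22 for C4b to 1.31 for Cfd.

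Serping1 stood well above the other members in both conditions. The authors' deposited table lists it at 355 in q1 and 327 in q2, in FPKM. The next levels per the authors' deposited table were Cfp at 85.8 and 104, C3 at 54.1 and 73.5, and Cfb at 36.1 and 58.2. These 4 genes had the same order in both conditions, and C2 was the lowest member in both. The 4 genes between them changed places: in q1 the order was C4b, C1ra, Cfd and C3ar1, and in q2 it was Cfd, C4b, C3ar1 and C1ra. With 1 pooled value per condition, no spread tells which neighbours in this order differ. In the authors' deposited table the level of Serping1 was 4.14 times that of Cfp in q1 and 3.15 times in q2, and 27.5 and 25.9 times that of C2. Among all tested genes, the mean levels of the members lay between the 62.6th percentile (C2) and the 98.0th (Serping1).

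**Figure D1:**
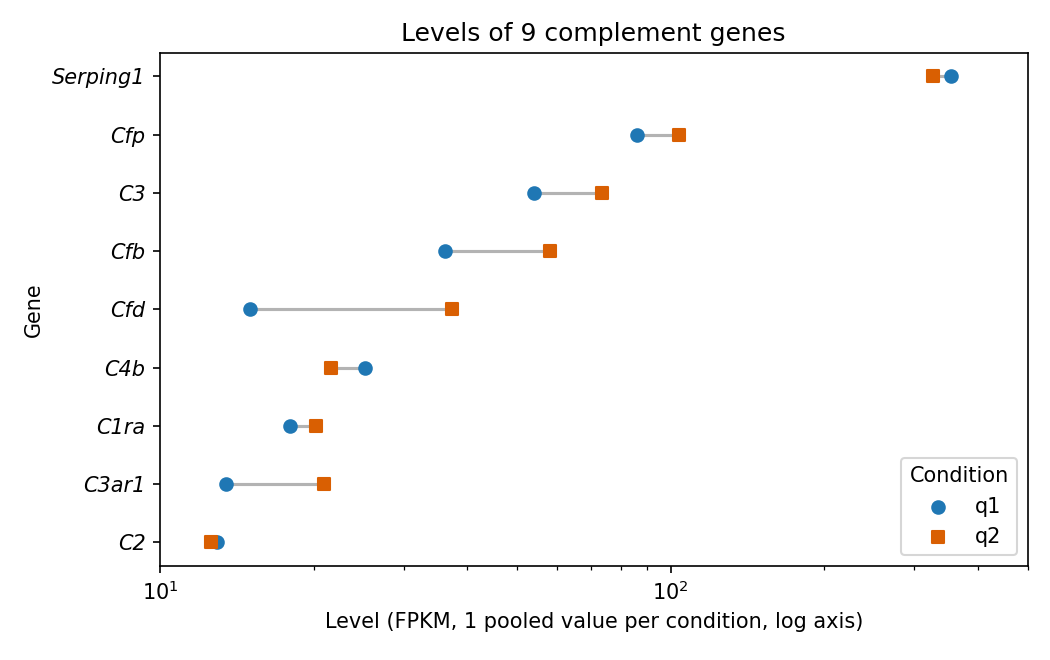
Level of each of the 9 complement genes in condition q1 (circles) and q2 (squares), in FPKM on a log axis, with 1 pooled value per condition and no error available. Serping1 lies highest, at 355 and 327, and the widest gap between conditions is that of Cfd, at 15.0 and 37.4.

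C1ra codes for C1r, the protease of the C1 complex that cleaves itself and then C1s. It lies at chr6:124512621-124523440 (GRCm38), on the plus strand in GENCODE. Its level was 18.0 in q1 and 20.2 in q2 per the authors' deposited table, nearly level. The log2 fold change was 0.17 (Cuffdiff p = 0.664 per the authors' deposited table). Mice carry a near copy, C1rb, on the same chromosome, which the authors did not test; their deposited table lists it at 0.0051 and 0.033. The aligned coding bases of both copies were 98.0% identical in GENCODE transcripts. Of all 50-base stretches in the C1ra transcript, 50.8% also occur in transcripts of other genes, 48.0% in C1rb. How the authors' counting split such reads is not stated, so the level of C1ra is uncertain. The stretch of 30 coding bases that differs most between the copies is shown because reads over it can tell them apart; it lies in exon 11, at chr6:124522649-124522678 for C1ra and chr6:124580695-124580724 for C1rb, both on the plus strand, and capitals mark the 7 differing bases.
C1ra: tcgggaTaacagAaGataAgTtaGctttcG
C1rb: tcgggaCaacagGaAataGgAtaCctttcC

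The partners of C1r in the C1 complex were more abundant than C1ra itself. C1s, the protease that cleaves C4 and C2, was listed at 70.6 and 70.4 per the authors' deposited table, 3.93 and 3.49 times the level of C1ra. The C1q chains, which recognise the target, were listed at 61.4 and 84.9 for C1qa, 319 and 468 for C1qb and 89.0 and 96.5 for C1qc per the authors' deposited table. All 3 chains had log2 fold changes above 0, from 0.12 to 0.55, and none had a Cuffdiff p below 0.05 there. C1rl, a relative of C1r, was low at 1.52 and 3.78, with a log2 fold change of 1.32 that did not pass (Cuffdiff p = 0.0302, q = 0.725 per the authors' deposited table).

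C4b codes for complement C4, which C1s cleaves so that its larger piece binds to surfaces. Its position is chr17:34728381-34743897 (GRCm38, minus strand), in the class III part of the mouse major histocompatibility complex. Its q1 level was 25.2 and its q2 level 21.6 per the authors' deposited table. The log2 fold change of -0.22 was the lowest of the members (Cuffdiff p = 0.545 per the authors' deposited table). C4a, the nearby copy known as sex-limited protein, was not tested and was listed at 0.24 and 0.25 there. In GENCODE the aligned coding bases of C4b were 96.1% identical to C4a, and 34.6% of the 50-base stretches of C4b transcripts also occur in C4a. Its level is therefore uncertain too. The most different stretch of 30 bases, in exon 21 of both genes, shows that the copies can be separated in places; it lies at chr17:34735436-34735465 for C4b and chr17:34816092-34816121 for C4a, both on the minus strand, with the 9 differing bases in capitals.
C4b: aGGtggtggctCGagggGTtttTgattTaG
C4a: aATtggtggctAAagggACtttGgattCaA

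C2 and Cfb code for the related proteases of the classical and the alternative C3 convertase, and they are neighbours on the minus strand. Cfb lies at chr17:34856374-34862514 and C2 at chr17:34862602-34882100 (GRCm38), close to C4b. In the authors' deposited table C2 stood at 12.9 in q1 and 12.6 in q2, with a log2 fold change of -0.04 (Cuffdiff p = 0.927). The level of Cfb was 36.1 in q1 and 58.2 in q2 per the authors' deposited table. The Cfb value was 1.61-fold higher in q2, a log2 fold change of 0.69 with the smallest Cuffdiff p of the members, 0.0837, and it did not pass (q = 0.999 per the authors' deposited table). The ratio of the Cfb level to the C2 level was 2.79 in q1 and 4.62 in q2 by the authors' deposited table, and the difference between these ratios was not tested. GENCODE also has a gene model, Gm20547, that spans both genes and shares 73.0% of the 50-base stretches of Cfb and 38.7% of those of C2. Reads in the shared part cannot be told apart from transcripts of that model.

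C3 is the protein on which all complement pathways meet. It lies on the same chromosome, further along, at chr17:57203973-57228136 (GRCm38, minus strand). The authors' deposited table lists it at 54.1 in q1 and 73.5 in q2. This is a 1.36-fold higher value in q2, with a log2 fold change of 0.44 that did not pass (Cuffdiff p = 0.311 per the authors' deposited table). No 50-base stretch of C3 transcripts occurs in another gene's transcripts, and the same holds for Cfd, Cfp, Serping1 and C3ar1. The level of C3 was 2.14 times that of C4b in q1 and 3.40 times in q2 by the authors' deposited table.

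Cfd codes for factor D, also called adipsin, the protease that cleaves factor B once it is bound to C3b. It had the largest fold of the members and also the smallest test statistic for its fold. Its level was 15.0 in q1 and 37.4 in q2 per the authors' deposited table, a 2.49-fold higher value in q2. The log2 fold change of 1.31 lay at the 94.9th percentile of all tested genes, yet the Cuffdiff p was 0.436 per the authors' deposited table. GENCODE places Cfd at chr10:79890853-79892655 (GRCm38, plus strand), but the table gives it the position chr10:79697305-80369637, which 46 genes share. Of the 40 genes tested at that position none was called, and the smallest Cuffdiff p there was 0.0588 per the authors' deposited table. The ratio of log2 fold change to the authors' test statistic, which is larger where a given fold counts for less, was 10.4 for Cfd and lay between 0.66 and 0.77 for the other 8 members. For the 40 genes of the shared position its median was 8.86, against 0.79 over all tested genes with a finite value. Elane and Prtn3, protease genes of neutrophil granules next to Cfd, were listed at 18.9 and 255 and at 3.86 and 43.4 per the authors' deposited table without passing. None of 7 tested adipocyte markers was called, and their summed level was 14738 and 12359 per the authors' deposited table, most of it Fabp4 at 14386 and 12032, which endothelial cells also express, and Lpl at 299 and 258. Of the 7, 3 had log2 fold changes above 0 and 4 below, with a median of -0.21. Apart from Pparg, the other markers were low: per the authors' deposited table Adipoq was listed at 2.36 and 4.63, Retn at 1.13 and 8.03, Cidec at 6.50 and 4.27, Lep at 1.15 and 0.041, and Plin1, not tested, at 0.067 and 0.37. Pparg was listed at 42.3 and 52.5 there. The part of either cell type in the Cfd values was not tested.

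**Figure D2:**
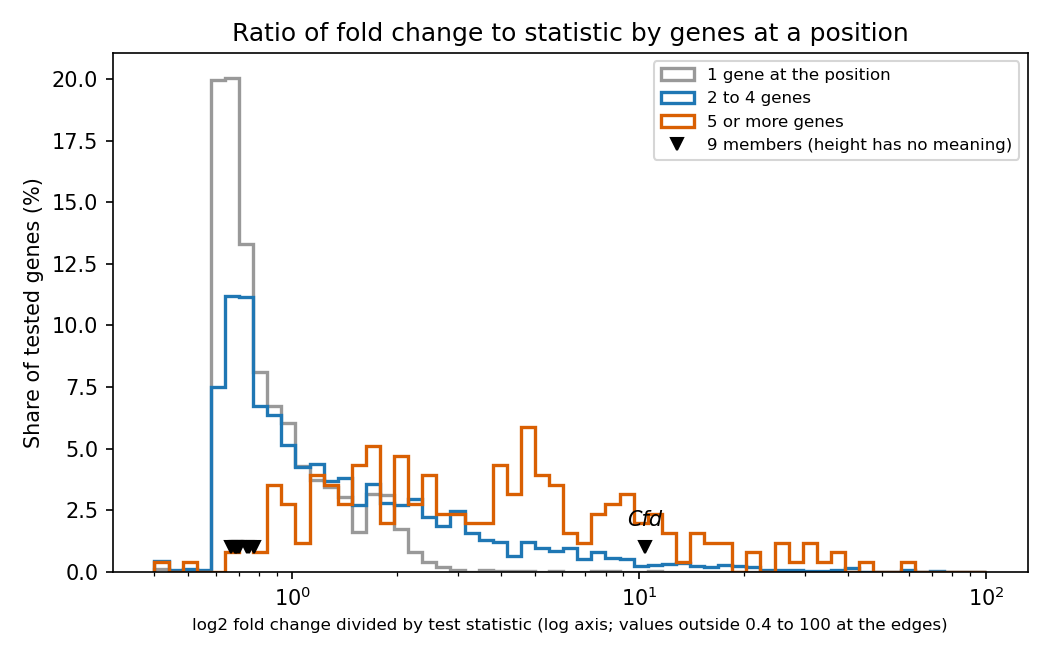
Share of tested genes (percent) by the ratio of log2 fold change to the authors' test statistic (log axis), for genes alone at their position in the table, for 2 to 4 genes at 1 position and for 5 or more; triangles mark the 9 members. Cfd, at 10.4, lies in the range of genes that share a position with many others, and the other 8 members lie between 0.66 and 0.77.

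Cfp codes for properdin, which stabilises the alternative C3 convertase and is made mainly by myeloid cells. It lies at chrX:20925535-20931524 (GRCm38, minus strand). Its level was 85.8 in q1 and 104 in q2 per the authors' deposited table, the second highest member in both conditions. The log2 fold change was 0.27 (Cuffdiff p = 0.479 per the authors' deposited table).

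Serping1 codes for C1 inhibitor, the serpin that inactivates C1r and C1s. It lies at chr2:84765360-84775429 (GRCm38, minus strand). Its values of 355 in q1 and 327 in q2 give a log2 fold change of -0.12 (Cuffdiff p = 0.774 per the authors' deposited table). The inhibitor transcript was 19.7 times the level of C1ra in q1 and 16.2 times in q2 by the authors' deposited table, on the FPKM scale. Other soluble regulators were abundant as well. In the authors' deposited table Clu (clusterin), which blocks the terminal complex, was listed at 373 and 264 and Vtn (vitronectin) at 159 and 165. Neither passed, with log2 fold changes of -0.50 and 0.05 there. Cfi, a protease that inactivates C3b and C4b, was not tested and was listed at 0 and 0.17 per the authors' deposited table.

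C3ar1 codes for the receptor of C3a, found on monocytes, macrophages and neutrophils. It lies at chr6:122847140-122856157 (GRCm38, minus strand). Its level was 13.5 in q1 and 20.9 in q2 per the authors' deposited table. The 1.55-fold higher value in q2, a log2 fold change of 0.63, did not pass (Cuffdiff p = 0.142, q = 0.999 per the authors' deposited table). C5ar1, the receptor of C5a, was listed at 41.6 and 80.9, with a log2 fold change of 0.96 (Cuffdiff p = 0.0174, q = 0.567 per the authors' deposited table). C5ar2, the second C5a receptor, was low at 0.28 and 1.90 (Cuffdiff p = 0.0178, q = 0.571 per the authors' deposited table). The integrin chains of complement receptor 3 were listed at 10.2 and 16.3 for Itgam and 24.6 and 51.0 for Itgb2 per the authors' deposited table, with a Cuffdiff p of 0.0961 and 0.0123 and neither called. Vsig4, the C3b receptor of resident macrophages, was listed at 7.46 and 5.55 and Cd93 at 106 and 84.5 per the authors' deposited table. Itgax was listed at 1.50 and 1.62 and C1qbp at 6.20 and 7.11 there.

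**Figure D3:**
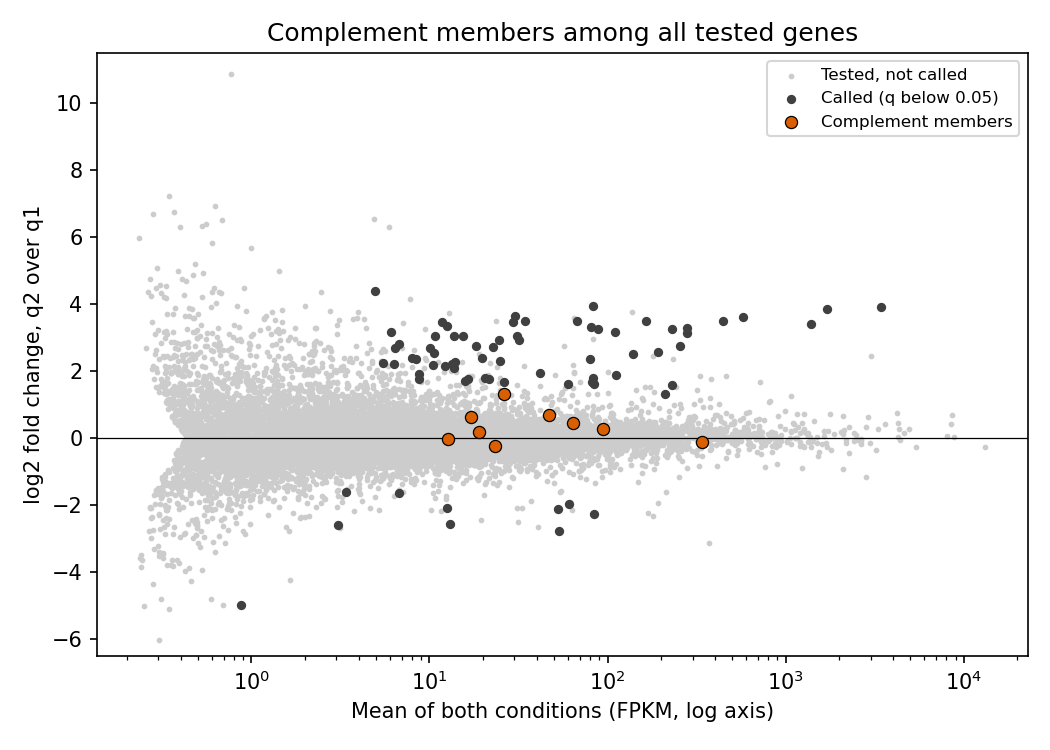
Log2 fold change (q2 over q1) against the mean of both conditions (FPKM, log axis) for all tested genes with a finite value; dark points are called genes and orange points the 9 complement members. The members lie between -0.22 and 1.31, and no member lies among the called genes.

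The smallest change that reached a call at these levels was larger than every member value. Between the lowest and the highest member mean, 12.8 and 341 FPKM, 5261 genes were tested and 46 called. The called genes among them differed by 2.50-fold or more, with a median of 5.77-fold. At an unadjusted Cuffdiff p below 0.05 the smallest fold was 1.58 over 266 genes. Cfd at 2.49-fold and Cfb at 1.61-fold are the members above that size. A missing call at these folds does not show that the members were equal in both conditions.

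Of the other complement genes on a list of 52 symbols, 48 had a row and 30 were tested. One lectin pathway gene, Fcnb, passed. Fcnb codes for ficolin B, a pattern recognition protein of bone marrow myeloid cells and neutrophils, and rose from 6.63 to 55.2 (Cuffdiff q = 0.0108 per the authors' deposited table). Its fold was 8.32 there. These 30 tested genes had a median log2 fold change of 0.09, with 18 above and 12 below 0. At an unadjusted Cuffdiff p below 0.05, 5 were higher and 1 lower, against a background of 3.72% and 2.27%. The 5 were Fcnb, C1rl, C5ar1, C5ar2 and Itgb2. C7, a subunit of the membrane attack complex, was the 1 lower gene, listed at 82.1 and 27.7 per the authors' deposited table, a 2.97-fold lower value that did not pass (Cuffdiff p = 0.0121, q = 0.491).

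**Figure D4:**
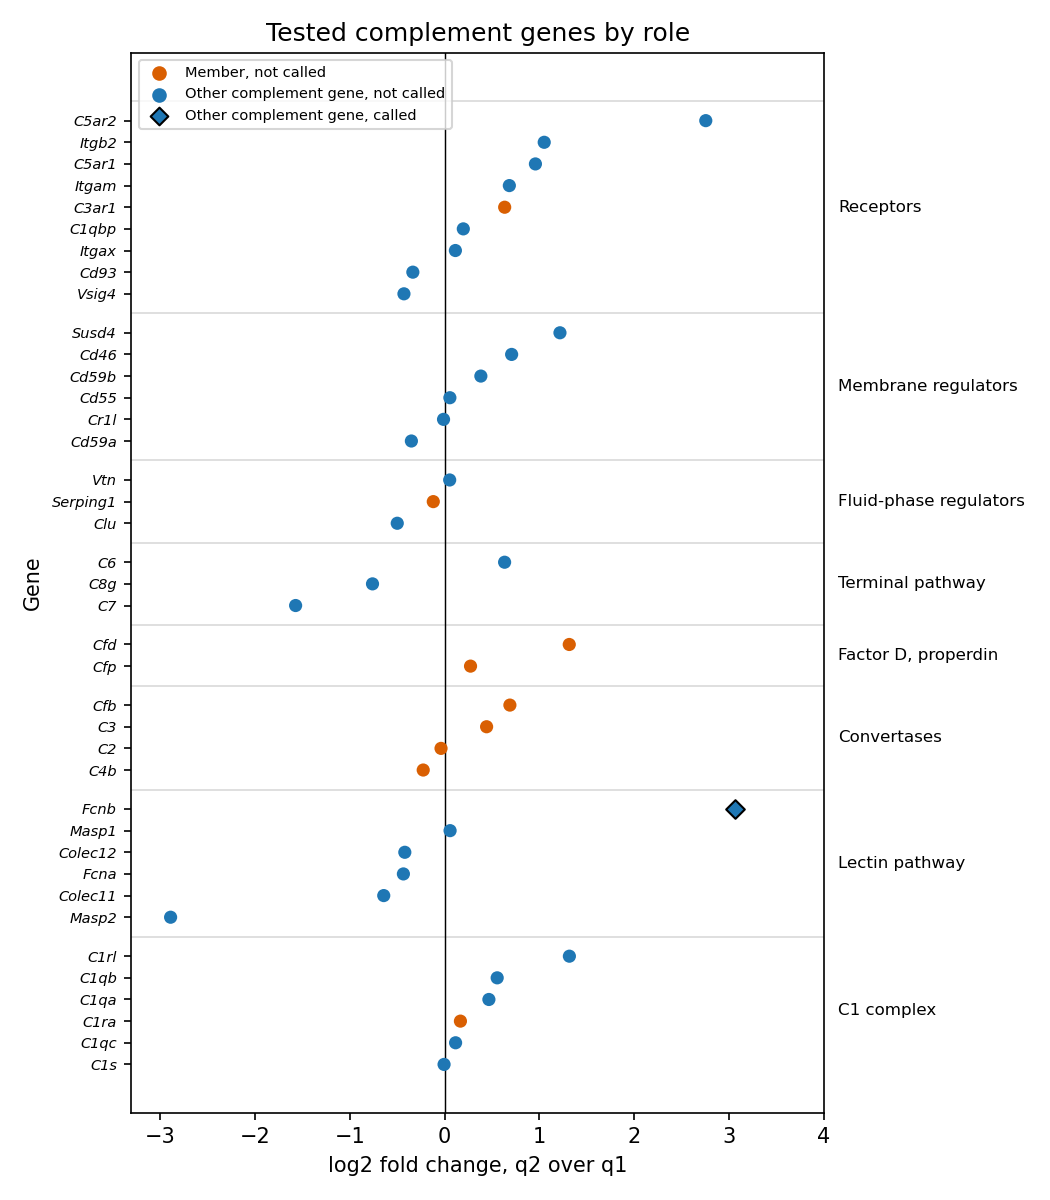
Log2 fold change (q2 over q1) of the 9 members (orange) and 30 other tested complement genes (blue), grouped by role; the diamond marks the called gene. Fcnb is the called gene, and C7 has a value of -1.57.

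Other genes grouped here with the lectin pathway included Fcna (ficolin A), listed at 62.1 and 46.0, and Colec12, at 25.7 and 19.2. Colec11 was listed at 13.9 and 8.94 and Masp1 at 1.36 and 1.41, per the authors' deposited table. None of these passed, and Mbl1 and Mbl2, the mannose-binding lectins made by liver, are listed at 0 in both conditions. Most of the terminal pathway was near or at 0. C8a and C8b are listed at 0 in both conditions, and Hc (C5) at 0.044 and 0.18 and C9 at 0.12 and 0.069 without a test per the authors' deposited table. C6 was listed at 1.10 and 1.70 and C8g at 2.82 and 1.66 there. The membrane regulators, which protect cells from their own complement, were led by Cd59a at 113 and 88.4 and Cr1l (Crry) at 102 and 101 per the authors' deposited table. Cd55 was listed at 14.1 and 14.7, Cd59b, a near copy of Cd59a, at 3.16 and 4.12, Cd46 at 1.32 and 2.16 and Susd4 at 0.59 and 1.37 per the authors' deposited table. No membrane regulator had an unadjusted Cuffdiff p below 0.05.

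Markers of neutrophils and monocytes held called genes, all higher in q2; myeloid cells are known to make Cfp, C3ar1, the C1q chains and Fcnb. Of 12 tested neutrophil markers 9 were called higher, against 0.498% of all tested genes. The summed level of the 12 went from 1202 to 15495 FPKM per the authors' deposited table. S100a8 and S100a9, which form calprotectin, rose from 426 to 6478 and from 222 to 3185 there, Ngp rose from 241 to 2537 and Camp from 86.4 to 1067. Csf3r and Cxcr2 on the same list were listed at 4.76 and 11.6 and at 7.90 and 10.6, without passing. Of 15 tested macrophage and monocyte markers 3 were called higher, and the sum went from 1310.1 to 2851. Of the 15, 10 had log2 fold changes above 0 and 5 below. Most of the sum was Lyz2 at 633 and 1504 and Cd14 at 227 and 525 per the authors' deposited table, neither called. Csf1r was listed at 83.8 and 49.7 there without passing. Ly6c2, a monocyte surface protein with a near copy, rose from 11.0 to 124, Ccr2, a chemokine receptor, from 7.41 to 25.4 and Tyrobp, a signalling adaptor, from 115 to 347 per the authors' deposited table. The resident macrophage genes Cd163 and Mrc1 were listed at 23.1 and 13.1 and at 39.3 and 38.7 there, without passing. Of 8 tested lymphocyte markers Nkg7 and Igj rose, from 3.37 to 27.6 and from 4.93 to 54.2 per the authors' deposited table; the sum went from 22.3 to 131.5. No tested marker of these 3 lists was at 0. The part of these cells in the complement values was not tested, and in bulk samples more cells of a type and more RNA per cell cannot be told apart.

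Stromal and vascular markers, whose cells make C3, C4, C1r, C1s and C1 inhibitor, held no called gene. The summed level of 12 fibro-adipogenic and fibroblast markers was 6933 in q1 and 5937 in q2 by the authors' deposited table, with Gsn at 3583 and 2822 and Dcn at 1259 and 1407; 4 of the 12 had log2 fold changes above 0 and 8 below. At an unadjusted Cuffdiff p below 0.05, 2 of the 12 were lower, Col1a1 and Col1a2, and 0 higher, against a background of 2.27% lower and 3.72% higher. The sums were 2739 and 2376 for 8 endothelial markers, led by Egfl7 at 911 and 822 and Esam at 663 and 602, per the authors' deposited table. Pericyte and smooth muscle markers summed to 3569 and 4630.4 over 7 genes, with Rgs5 at 2279 and 3553 and Tagln at 544 and 405 there. Of these 7, 2 had log2 fold changes above 0 and 5 below, with a median of -0.29. For Schwann cells, 6 markers summed to 1385 and 1463, with Mbp at 595 and 651 and Pmp22 at 613 and 647 per the authors' deposited table. For mast cells, 6 markers summed to 171 and 101, with Tpsb2 at 86.7 and 40.9 and Cma1 at 39.6 and 28.9 there. Against these, the 9 satellite cell markers summed to 349.6 and 407 per the authors' deposited table, with the sorting marker Sdc4 at 173 and 270 and Vcam1 at 90.8 and 65.1. Pax7, the defining transcription factor, was listed at 1.16 and 0.85 there, and Calcr, Cdh15 and Myod1 were at most 2.43 in either condition. Myf5 was listed at 16.7 and 17.8, Itga7 at 31.8 and 26.3 and Chodl at 32.1 and 21.7 per the authors' deposited table. Sums over lists of different genes do not measure shares of cells. Since markers of other cell types were also listed, the complement levels cannot be assigned to satellite cells alone. Hnrnpd, the targeted gene, was listed at 7.50 and 5.59 (Cuffdiff p = 0.291 per the authors' deposited table) and so names neither condition as AUF1-null.

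Interferon-gamma and acute-phase signals are known inducers of several members, C3, Cfb, C4b and Serping1 among them. Of 16 tested interferon-gamma response genes none was called. Their median log2 fold change was -0.28, with 5 above 0 and 11 below. At an unadjusted Cuffdiff p below 0.05 there were 4, 1 higher (Irf8) and 3 lower (Gbp4, Gbp6 and Igtp). The background was 3.72% higher and 2.27% lower. Irf1, an early factor of the response, was listed at 536 and 542 and the proteasome gene Psmb8 at 145 and 152 per the authors' deposited table. Of 13 tested acute-phase genes 2 were called: Hp (haptoglobin) rose from 14.7 to 148 and Lcn2 from 57.7 to 502 per the authors' deposited table. The median log2 fold change of the list was 0.37, with 8 above 0 and 5 below. Lcn2 is also on the neutrophil list. Il6, Socs3 and Stat3 were listed at 362 and 441, 423 and 339, and 96.2 and 86.9 per the authors' deposited table without passing.

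Promoter sequences, from 250 bases before to 50 after the start, were matched in RefSeq (GRCm38.p6) for 5 members: C1ra, C3, Cfd, Cfp and C3ar1. C4b, C2, Cfb and Serping1 had no entry. They were searched on both strands, any overlap allowed, for TTCNNNGAA (sites of interferon-gamma signalling) and for a motif each of interferon-stimulated response elements and of NF-kB. TTCNNNGAA was in 1 of the 5, C1ra, after the start, and in 8.30% of all 32851 promoters. The interferon-stimulated element was in 0 of the 5 and in 3.44% of all promoters, and the NF-kB motif in 1 of the 5, C3ar1, and in 5.56%. The C3ar1 match is shown because it was the only one before a start; the window lies at chr6:122856158-122856187 on the minus strand and the match, read on the opposite strand, is in capitals.
C3ar1: ttaagaggtgactcatGGAAAGGCCCttcc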

How the data were processed

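RNA sequencing of 6 samples was analysed from 1 table in the layout of Cuffdiff. The tools named per the submitters' processing notes are TopHat2 2.0.9 and Cufflinks 2.2.1; the sources used here give no annotation, normalization or strand setting. Per the file headers, the authors deposited for each gene 1 value per condition, here read as FPKM, a log2 fold change, a test statistic (used as a score) a p-value and a q-value. Depth per sample is unknown. The notes name mm9, but of 21355 genes matched to RefSeq by symbol and chromosome, 99.5% overlapped the GRCm38 gene, as did all 9 members; 1 was added to each start. Adjusting the authors' p-value again (Benjamini-Hochberg, 14858 tested genes) gave their deposited q-value, and no test over samples could be run. Another 8503 genes were not tested. Lists are described by counts and medians. The 79 tested genes without a finite log2 value stay out of medians and of the counts by shared position.

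Members and lists were chosen with earlier results of these data known. The text names every member, every other tested complement gene with at least 1 FPKM on its higher side, and from each other list up to 4 called genes or, if none, the 2 with the highest mean; Hnrnpd, C1rb and C4a were also fixed. Elane, Prtn3, Plin1, Adipoq, Retn, Cidec, Lep, Pparg, Mrc1, Cd163, Pax7, Il6, Socs3 and Stat3, and complement genes under 1 FPKM or not tested, were chosen after their values were seen. The same holds for Cd14, Lyz2, Csf1r, Csf3r, Cxcr2, Col1a1, Col1a2, Myf5, Chodl, Itga7, Calcr, Cdh15, Myod1, Irf8, Gbp4, Gbp6 and Igtp. Sequences and 50-base stretches came from GENCODE vM21 and RefSeq; protein sequences were not analysed here. One gene fixed on the complement list is not reported here and is left out of its counts. The adjustment was tested on simulated data. Python 3.11.15, numpy 2.4.6, pandas 2.3.3 and matplotlib 3.10.9 were used. Whether the 3 samples of a group are separate mice is not labelled, so any spread behind the authors' p-value may be technical.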

Additional observations from a re-analysis of the deposited data

How the results depend on the processing

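The count of called members was 0 with a q below 0.1, after dropping genes under 1 FPKM and adjusting anew, and at an unadjusted Cuffdiff p below 0.05. It was also 0 with a fold of at least 2 and without Cfd, the last chosen after seeing the data. Both of these settings only narrow a main call of 0, so they could give no other count. At an unadjusted p below 0.05 the other counts moved: 890 in place of 91 over all tested genes, 6 in place of 1 among other complement genes, 4 in place of 0 for interferon-gamma response genes and 4 in place of 2 for acute-phase genes. None of 27 member log2 fold changes recomputed with a pseudocount of 0.1 or 1 or centred on the median changed sign, and the largest shift was 0.055. The same pseudocount added to both values cannot change a sign. Centring on the median of -0.014 could not reverse a member either, since the member nearest 0, C2, had -0.037. The unchanged signs are therefore no test of the members. Of 90 values of other complement genes recomputed in these ways 2 changed sign, both on centring: C1s to 0.0093 and Cr1l to 0.0037. Leaving out samples was not run, since the table used holds no values per sample. No paired analysis was possible because of the same lack of values per sample. Without counts, what depth limits could not be assessed.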

Other observations

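Genes that share a position in the authors' deposited table were seldom called, and Cfd is among them. Tested genes without a finite log2 value, some of them called, were left out of the counts below. Of 11883 remaining tested genes alone at their position 0.589% were called, of 2641 at positions with 2 to 4 genes 0.114%, and of 255 at positions with 5 or more genes none, with 1 of these 255 at an unadjusted Cuffdiff p below 0.05. Among genes with a fold of at least 5 whose higher value was at least 5 FPKM, 42 of 69 genes alone at their position were called, against 1 of 18 at positions with 2 to 4 genes and 0 of 2 at positions with 5 or more. The median ratio of log2 fold change to test statistic was 0.75, 1.04 and 3.40 in these 3 classes. Masp2 and C8g also share their position, with 1 other gene each; Masp2 was listed at 0.86 and 0.12 and had a ratio of 14.4, and C8g a ratio of 4.13 per the authors' deposited table. These comparisons were chosen after seeing the data, and their cause was not tested.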
